A study of Homo sapiens with 6 samples.

Results

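The NF-kB pathway genes described here are 37 listed genes out of 20037 protein-coding genes in the RefSeq table of GRCh38.p14. They comprise 5 subunits, 5 members of the IkB family, 6 kinases and their partners, 7 TRAF and IAP proteins, 3 brakes, 7 receptors and ligands, and 4 adaptors. All 37 symbols matched the table. Open chromatin was read at 2 scales, as peaks within 1 kb of either end of a gene record and as merged regions within 50 kb of either end, of which there were 232 among 43544 such regions near all protein-coding genes.

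The groups were 3 KDM6A knockout libraries and 3 wild-type libraries of ARP1, a human multiple myeloma cell line. KDM6A (also called UTX) is an X-linked histone demethylase that erases a repressive methyl mark of histone H3, and the stated aim was to learn how it affects DNA accessibility. The assay was ATAC-seq, in which a transposase cuts and tags accessible DNA. Replicate numbers in the labels are biological, with no word on which cultures or clones they stand for, so any p-value measures only the spread among these 6 libraries. No treatment or stimulus of the pathway is named in the labels, and in bulk libraries fewer cells with an open site and less opening per cell cannot be told apart.

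NF-kB factors are dimers of REL-family subunits that IkB proteins hold back in the cytoplasm. In the canonical route, TNF receptors, Toll-like receptors and antigen receptors act through adaptors and the IkB kinase complex to free RELA and REL dimers. In the non-canonical route, receptors such as CD40 and LTBR release the kinase NIK (MAP3K14) from a complex of TRAF2, TRAF3, BIRC2 and BIRC3 that keeps it low, and NFKB2 is then processed to pair with RELB. Plasma cells and myelomas depend on this pathway to differing degrees, and mutations that switch on the non-canonical route, including loss of TRAF3, CYLD or BIRC2 and BIRC3, are well known in myeloma. Several of the genes are themselves NF-kB targets, among them NFKBIA, TNFAIP3, NFKB2 and BIRC3.

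The lists differed in length, which touches every count below. After the single mitochondrial peak of each list was left out, the knockout lists held 33055, 37314 and 36055 peaks, and the wild-type lists held 54443, 54470 and 56048 peaks. The background pileup recovered from the steps of the deposited folds was 2.31 ± 0.257 in knockout libraries and 3.52 ± 0.357 in wild-type libraries (SD, n = 3 each). The weakest fold listed was 3.23 ± 0.121 in knockout lists and 2.81 ± 0.0995 in wild-type lists (SD, n = 3 each), so lower folds were listed in wild type. The part of depth and list length in the results was not tested beyond the lists of equal length described below. A peak at an end of KDM6A was listed in all 6 libraries, so these peaks do not check the knockout. Of 8 plasma cell marker genes, 6 had an end peak in all 6 lists, and the ends of PRDM1 and FCRL5 were listed in 1 knockout library and 3 wild-type libraries each, whereas none of 7 myeloid markers, 1 of 7 T and NK cell markers (CD3E), 1 of 3 erythroid markers and 1 of 4 stromal markers did.

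The promoters of 5 pathway genes are shown because they carry the letters that NF-kB reads and because they differ in whether a peak was listed there. The windows run from 250 bases before to 50 bases after a start, are taken from the RefSeq promoter table of GRCh38.p14 and are written 5′ to 3′ on the gene's own strand. Capitals mark matches to the NF-kB consensus, a motif of 10 bases searched on both strands. The windows lie at chr6:137867009-137867308 (plus strand, TNFAIP3), chr14:35404700-35404999 (minus strand, NFKBIA), chr10:102394328-102394627 (plus strand, NFKB2), chr11:102317234-102317533 (plus strand, BIRC3) and chr14:102777199-102777498 (plus strand, TRAF3).
TNFAIP3 promoter: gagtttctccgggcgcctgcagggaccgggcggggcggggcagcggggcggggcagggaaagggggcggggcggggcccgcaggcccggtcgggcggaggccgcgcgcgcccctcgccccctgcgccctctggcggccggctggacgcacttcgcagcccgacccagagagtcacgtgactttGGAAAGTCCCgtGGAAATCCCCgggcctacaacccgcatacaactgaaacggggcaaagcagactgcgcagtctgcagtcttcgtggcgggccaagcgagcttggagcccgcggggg
NFKBIA promoter: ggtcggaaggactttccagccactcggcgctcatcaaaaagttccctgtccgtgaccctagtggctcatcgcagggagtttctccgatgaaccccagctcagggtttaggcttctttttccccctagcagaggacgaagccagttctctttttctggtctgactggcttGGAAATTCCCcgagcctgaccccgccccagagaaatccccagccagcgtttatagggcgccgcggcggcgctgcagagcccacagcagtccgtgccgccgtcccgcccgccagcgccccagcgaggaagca
NFKB2 promoter: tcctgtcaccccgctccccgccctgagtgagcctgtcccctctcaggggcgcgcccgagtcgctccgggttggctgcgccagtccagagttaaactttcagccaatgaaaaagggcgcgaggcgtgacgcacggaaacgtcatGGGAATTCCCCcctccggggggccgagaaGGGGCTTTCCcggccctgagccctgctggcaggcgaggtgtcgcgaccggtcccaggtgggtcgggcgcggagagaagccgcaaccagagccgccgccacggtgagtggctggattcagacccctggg
BIRC3 promoter: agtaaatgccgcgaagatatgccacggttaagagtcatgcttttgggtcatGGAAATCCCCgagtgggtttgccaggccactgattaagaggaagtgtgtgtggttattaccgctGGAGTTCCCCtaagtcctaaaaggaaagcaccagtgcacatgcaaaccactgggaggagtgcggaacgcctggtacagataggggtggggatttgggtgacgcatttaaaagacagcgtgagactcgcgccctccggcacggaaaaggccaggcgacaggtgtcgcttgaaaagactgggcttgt
TRAF3 promoter: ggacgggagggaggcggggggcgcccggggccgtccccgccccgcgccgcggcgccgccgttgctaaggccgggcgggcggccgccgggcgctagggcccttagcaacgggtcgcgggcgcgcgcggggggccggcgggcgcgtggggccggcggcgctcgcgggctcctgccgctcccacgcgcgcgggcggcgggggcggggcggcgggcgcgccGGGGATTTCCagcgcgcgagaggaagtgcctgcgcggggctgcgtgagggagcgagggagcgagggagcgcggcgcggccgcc
The windows of NFKBIA and TRAF3 each held 1 match, those of TNFAIP3 and BIRC3 held 2 each, and the NFKB2 window held 3, of which a pair overlap by all but a single base. Of the 32 pathway genes with an entry in the promoter table, 15 (46.9%) had a match in at least 1 window, beside 8.40% of 15843 protein-coding genes with an entry. A match is a description of letters and says nothing of binding in these cells. The peak summit lay close to the printed start at BIRC3, at a median of 21 bases downstream over the 6 lists, and at TNFAIP3, at a median of 27.5 bases upstream. At NFKBIA the median summit lay 594 bases downstream of the start, and at TRAF3 no list had a peak. NFKBIE, IKBKB, TIRAP, RELB and CD40 are named only.

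Most pathway genes had an open end in every library. A peak within 1 kb of a gene end was listed in all 6 libraries for 29 of the 37 genes (78.4%), beside 54.7% of all protein-coding genes. No list had an end peak at IKBKG, TAB2, TRAF3, TNIP1, CD40 or LTBR. LTA and TNF were listed in part. None of the 30 genes whose end was called in all 3 wild-type lists was missing from all 3 knockout lists, where 1.75% of such protein-coding genes were, and none showed the converse, where 0.0453% did. In lists shortened to equal length, described below, 28 of the 37 genes had an end peak in all 6, beside 51.9%.

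**Figure D1:**
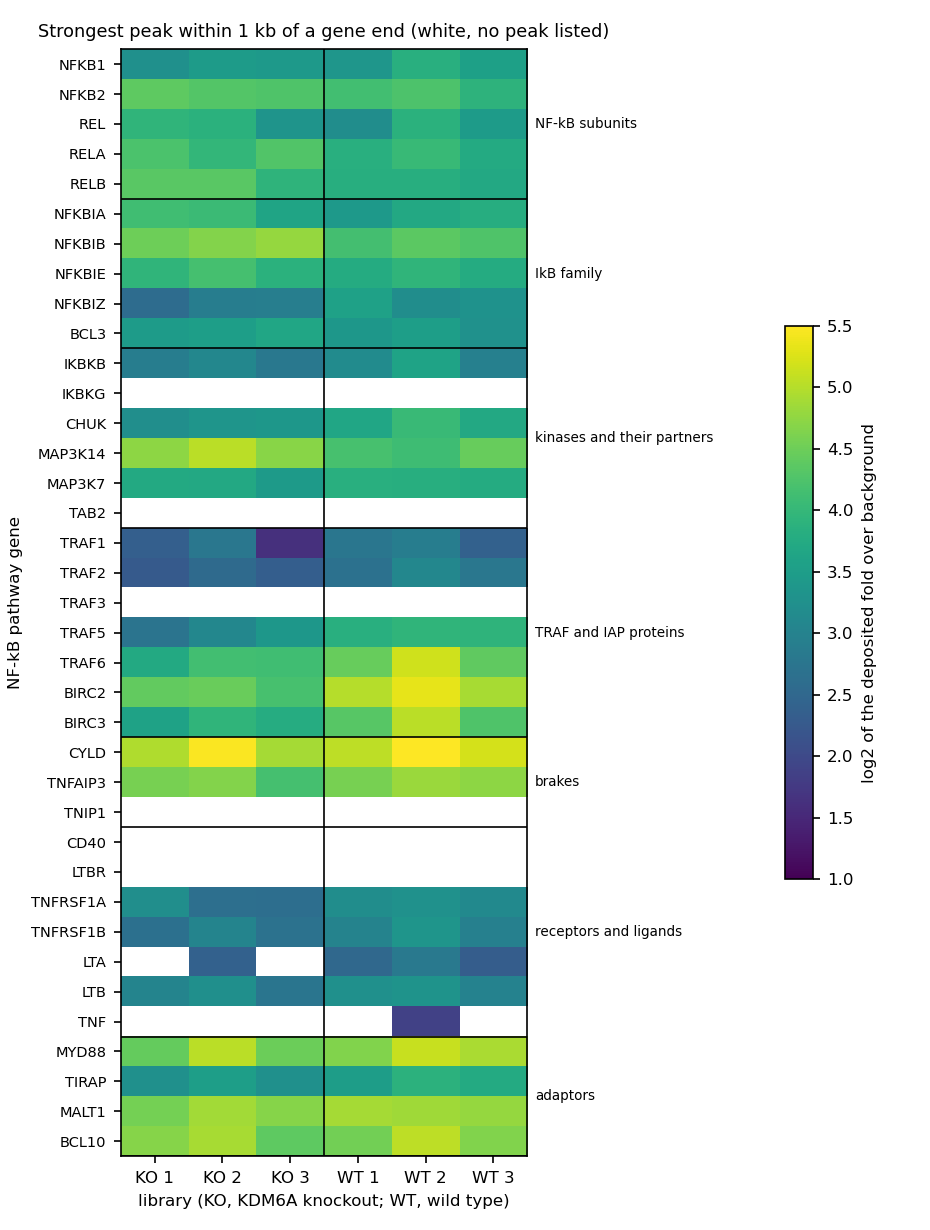
Strongest peak within 1 kb of an end of each of the 37 NF-kB pathway genes (rows) in the 3 knockout and 3 wild-type libraries (columns), coloured by log2 of the deposited fold over background, with white where no peak was listed. The 29 genes called in all 6 libraries fill their rows, and 6 rows are white throughout.

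The receptor and ligand genes were called least often. All 5 subunits, all 5 IkB family genes and all 4 adaptors had an end peak in every list, as did 6 of 7 TRAF and IAP genes, 4 of 6 kinases and partners, and 2 of 3 brakes. Among the 7 receptors and ligands, 3 did (42.9%), beside 54.7% of all protein-coding genes. They were TNFRSF1A and TNFRSF1B, the receptors of TNF, and LTB, the membrane-bound partner of lymphotoxin alpha. In the authors' folds, which describe strength within a list, the mean over a genotype's 3 lists at these 3 ends, which were called in all 6 lists, ranged from 6.99 to 8.12 in knockout and from 8.69 to 9.24 in wild type. CYLD, a deubiquitinase that switches the pathway off, had folds of 31.3, 44.6 and 29.7 in knockout lists and 33.3, 48.4 and 36.9 in wild-type lists. These folds are above those of the 3 receptor and ligand ends in both genotypes.

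Some genes without an end peak had a peak at a start inside the gene record, which windows at gene ends miss. IKBKG, the regulatory subunit of the IkB kinase complex, TAB2, an adaptor of the kinase TAK1, and TNIP1, a partner of the brake TNFAIP3, each had a peak at a listed start inside the record in all 6 lists. The IKBKG start region, chrX:154546154-154548601, had folds of 15.3, 16.4 and 15.2 in knockout lists and 17.5, 23.1 and 21.4 in wild-type lists. Part of IKBKG has a near-identical pseudogene copy, and how the reads of such copies were treated is not given in the sources used here. Counted over listed starts, 27 of the 32 genes with an entry were called in all 6 lists, beside 58.3% of protein-coding genes with an entry. TRAF3, LTBR and TNF had no peak at a listed start in any list, as 33.9% of protein-coding genes did not. Ends and starts together gave 32 of the 37 genes a peak in all 6 lists.

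TRAF3 stood in a long stretch without peaks. TRAF3 is the adaptor that brings NIK to its destruction. Its record spans chr14:102777449-102911500, its start had no peak in any knockout or wild-type list, and the nearest regions ended 169 kb below and began 41.8 kb above it, a gap of 211 kb. Of protein-coding genes with an entry, 8.47% had a listed start as far from a region or farther. The TRAF3 window printed above is 86.0% G and C and holds 61 CpG pairs. Only 17 promoter windows of the table held as many or more, and of these 52.9% were called in all 6 lists and 23.5% in none. Inside the gene, chr14:102819217-102820221 was listed in 1 knockout library, with a fold of 3.93, and in all 3 wild-type libraries, with folds of 4.06, 5.35 and 3.35.

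CD40 and LTBR, receptors that engage the non-canonical route, also lacked a peak at their ends in every knockout and wild-type list. CD40 had 1 region within 50 kb, chr20:46089067-46090331 at an end of NCOA5, 28.0 kb away. At LTBR, a receptor known mainly from stromal and myeloid cells, the listed start lay 19.9 kb from the nearest region, and 15.6% of protein-coding genes lay as far or farther. TNF and LTA, the secreted ligands, were called in part of the lists. The end of TNF was listed in no knockout library and in wild-type library 2, with a fold of 3.65. LTA was listed at an end, which is shared with NFKBIL1, in knockout library 2 with a fold of 5.25, and in the 3 wild-type libraries with folds of 5.77, 7.05 and 5.03. Without knockout library 2, the end of LTA would count as called in wild type and not in knockout. At the listed starts of LTA, chr6:31571957-31572732 was listed in knockout library 3, with a fold of 4.49. It was also listed in the 3 wild-type libraries, with folds of 4.91, 5.83 and 5.03.

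To compare strength between genotypes, each list was shortened to its 33055 strongest peaks by deposited −log10 p, as many as the shortest list holds, and each region was given the percentile of its peak, where 100 is the strongest. Shortening took more peaks from the wild-type lists. The weakest fold kept was 3.74 ± 0.482 in knockout and 5.39 ± 0.238 in wild-type lists (SD, n = 3 each). A higher percentile is thus a higher rank and not always a higher fold. At the NFKB1 end the mean fold was 10.5 in knockout and 12.1 in wild type, with mean percentiles of 70.5 and 63.0. Of the 232 regions near pathway genes, 99 were called in all 6 shortened lists. In 11 of them (11.1%) every knockout percentile was below every wild-type percentile, beside 15.2% of all regions near genes, and in 30 (30.3%) every knockout percentile was above, beside 20.3%. The groups overlapped in the other 58. Every one of these 41 regions without overlap had an exact permutation p = 0.1 (two-sided), the smallest that 3 against 3 libraries allow, so none could pass 0.05. The direction of the split depended on the shortening. In the full lists, 40 of 110 regions were lower in every knockout list and 13 were higher, beside 46.0% and 4.64% of 17190 regions near all genes.

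Gene ends and distal regions were counted apart. Among the 32 regions at the ends of pathway genes, 10 (31.2%) were higher in every knockout list, beside 25.2% of gene-end regions in general, and 2 were lower, beside 12.8%. The median difference of mean percentiles, knockout minus wild type, was 5.64 points at these ends and 1.87 points over 9111 gene-end regions. At ends of neighbouring genes, 16 of 34 regions (47.1%) were higher and 1 was lower. At distal regions, 4 of 33 (12.1%) were higher, beside 13.3%, and 8 (24.2%) were lower, beside 18.7%, with a median difference of −2.28 points against −1.76 points over all distal regions.

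**Figure D2:**
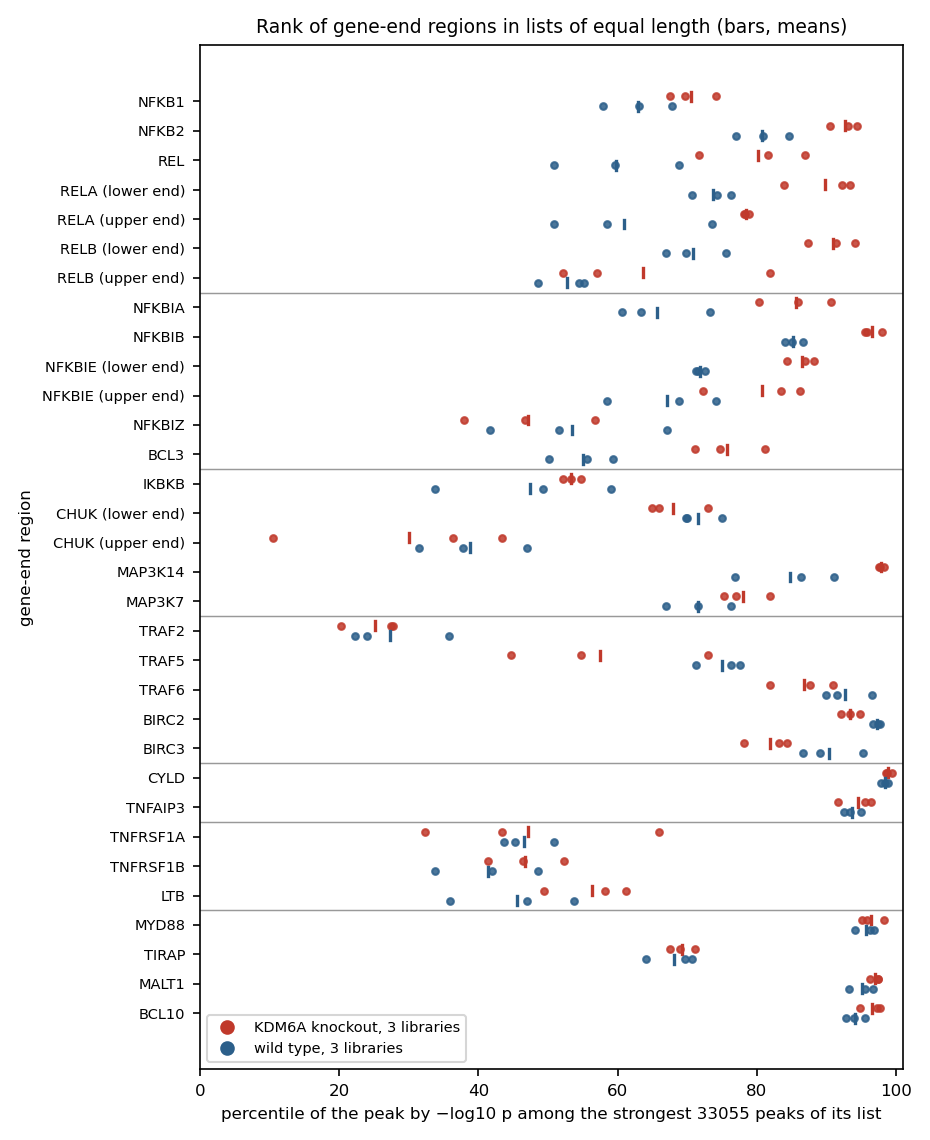
Percentile of each pathway gene-end region by −log10 p among the 33055 strongest peaks of its list (horizontal axis), with knockout and wild-type libraries as separate points and bars at the means of 3 libraries. The 10 ends whose knockout points all lie to the right belong to subunits, IkB genes and MAP3K14, and the BIRC2 and BIRC3 ends lie to the left in knockout.

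Of the subunit genes, 5 of 7 end regions were higher in every knockout list, beside 25.2% of gene-end regions in general, with a median difference of 16.1 points, beside 1.87 points. Of these 5 regions, 3 belong to RELA and RELB, within 5 Mb of which 57.2% and 67.2% of other gene-end regions were higher too. NFKB2, which encodes the p100 precursor of the non-canonical subunit p52, had an end region at chr10:102393634-102396363 that ranked at 94.4, 90.5 and 93.1 in knockout lists and at 84.7, 80.8 and 76.9 in wild-type lists. RELB, the partner of p52, ranked at 94.1, 91.3 and 87.3 in knockout lists and at 75.6, 67.0 and 69.8 in wild-type lists, at chr19:45000767-45002829. The 3 knockout values exceeded the 3 wild-type values in both, by a mean of 11.8 points at NFKB2 and 20.1 points at RELB. The other RELB end, shared with CLASRP, overlapped between genotypes, at 81.8, 57.0 and 52.1 in knockout lists and 55.2, 48.6 and 54.5 in wild-type lists.

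The canonical subunits RELA and REL gave the same order, and NFKB1 did not separate. RELA, the transactivating p65 subunit, ranked at 78.1, 78.9 and 78.4 in knockout lists and at 50.9, 73.6 and 58.4 in wild-type lists at its promoter end, chr11:65662442-65663873. At its other end, chr11:65651811-65653597, which is shared with SIPA1, it ranked at 92.2, 83.9 and 93.4 in knockout lists and at 76.3, 74.3 and 70.7 in wild-type lists. REL, the c-Rel subunit prominent in lymphoid cells, ranked at 87.0, 81.6 and 71.7 in knockout lists and at 50.9, 68.7 and 59.7 in wild-type lists, at chr2:60880789-60882131. In each of these 3 regions the lowest knockout percentile stood above the highest wild-type percentile, at REL 71.7 against 68.7. The folds of all 3 regions overlapped between genotypes. The lowest knockout fold and the highest wild-type fold were 10.1 and 14.6 at REL. They were 11.8 and 16.0 at the promoter end of RELA and 15.7 and 16.3 at its other end. NFKB1, which encodes p105 and p50, ranked at 67.5, 69.7 and 74.2 in knockout lists and at 57.9, 67.9 and 63.1 in wild-type lists, and knockout library 1 fell within the wild-type range (exact permutation p = 0.2).

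Among the IkB genes, 4 of 6 end regions were higher in every knockout list, beside 25.2% of gene-end regions in general. Within 5 Mb of BCL3 and NFKBIB, 65.1% and 55.0% of other gene-end regions were higher too. NFKBIA, which encodes the main inhibitor IkB alpha, ranked at 90.7, 85.9 and 80.3 in knockout lists and at 60.6, 63.4 and 73.2 in wild-type lists, at chr14:35403194-35405250. Its folds averaged 15.5 ± 2.76 in knockout lists and 12.6 ± 1.74 in wild-type lists (SD, n = 3 each). The percentiles did not overlap between genotypes. BCL3, a nuclear IkB protein that acts with p50 and p52 homodimers, ranked at 74.7, 71.1 and 81.2 in knockout lists and at 59.3, 55.7 and 50.1 in wild-type lists. NFKBIB, which encodes IkB beta and shares its end region with SIRT2, ranked at 95.8, 95.6 and 98.0 in knockout lists and at 85.1, 84.1 and 86.6 in wild-type lists. NFKBIE, which encodes IkB epsilon, ranked at 87.0, 88.2 and 84.3 in knockout lists and at 72.5, 71.3 and 71.5 in wild-type lists at the end shared with SLC35B2. The percentiles did not overlap at any of these 3 ends. The folds overlapped at BCL3, where the lowest knockout fold was 11.1 and the highest wild-type fold 11.4. They overlapped at this NFKBIE end too, at 13.7 against 15.3, and not at NFKBIB, at 22.9 against 20.7. The other NFKBIE end, chr6:44264099-44266123, overlapped between genotypes. It ranked at 83.5, 72.3 and 86.2 in knockout lists and at 74.1, 68.7 and 58.4 in wild-type lists. NFKBIZ, a nuclear IkB protein, overlapped at 38.0, 46.7 and 56.7 in knockout lists and 67.1, 41.7 and 51.7 in wild-type lists.

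Of the 5 end regions of kinases and their partners, 1 was higher in every knockout list, beside 25.2% of gene-end regions in general. It belongs to MAP3K14, within 5 Mb of which 67.8% of 90 other gene-end regions were higher too. The MAP3K14 region, chr17:45315810-45317864, ranked at 97.6, 98.3 and 97.6 in knockout lists and at 86.3, 76.8 and 91.0 in wild-type lists. Its folds were 26.8, 32.8 and 26.1 in knockout lists and 18.4, 17.3 and 22.0 in wild-type lists. Percentile and fold were higher in all 3 knockout lists than in any wild-type list. Folds were so at 2.9% of gene-end regions called in all 6 lists. Within a list, fold and −log10 p order peaks alike, so they are not separate checks. At CHUK, which encodes IKK alpha, and at IKBKB, MAP3K7 and the start regions of IKBKG and TAB2, the groups overlapped. Of the adaptors, MYD88, TIRAP, MALT1 and BCL10 overlapped too, and the mean differences at their ends ran from 0.733 to 2.48 points.

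Of the 32 pathway gene-end regions compared, 2 (6.25%) were lower in every knockout list, beside 12.8% of gene-end regions in general. They were the ends of BIRC3 and BIRC2. These genes encode the ubiquitin ligases cIAP2 and cIAP1, and their records lie 7.81 kb apart on chromosome 11. BIRC3, at chr11:102316956-102318503, ranked at 78.1, 83.2 and 84.3 in knockout lists and at 89.1, 95.2 and 86.6 in wild-type lists, with folds of 12.0, 15.4 and 13.7 in knockout lists and 20.1, 32.8 and 19.1 in wild-type lists. BIRC2, at chr11:102346170-102348494, ranked at 94.8, 93.4 and 92.0 in knockout lists and at 97.4, 97.7 and 96.7 in wild-type lists, with folds of 21.4, 22.3 and 18.2 in knockout lists and 32.0, 40.3 and 30.2 in wild-type lists. The mean differences were −8.45 points at BIRC3 and −3.81 points at BIRC2, and both ends were listed in every library. Folds at both were lower in every knockout list, as at 37% of gene-end regions called in all 6 lists. Among the other TRAF genes, TRAF5 had a larger mean difference, −17.6 points, but overlapped, at 44.7, 54.8 and 73.0 in knockout lists and 76.3, 71.3 and 77.6 in wild-type lists. TRAF5 was named after its values were seen.

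The brakes TNFAIP3 and CYLD overlapped. TNFAIP3, which encodes the ubiquitin-editing enzyme A20, ranked at 96.4, 95.6 and 91.7 in knockout lists and at 93.3, 92.6 and 94.9 in wild-type lists (exact permutation p = 0.7). CYLD ranked at 98.7, 99.4 and 98.6 in knockout lists and at 97.8, 98.8 and 98.4 in wild-type lists (exact permutation p = 0.3). Both stood near the top of every list, where a percentile has little room to move. Away from the gene ends, the start region of TNIP1 ranked at 95.1, 94.0 and 96.8 in knockout lists and at 97.8, 98.1 and 98.1 in wild-type lists, and the start region of TRAF2 ranked at 92.6, 94.0 and 92.4 in knockout lists and at 77.7, 84.8 and 87.1 in wild-type lists. These 2 start regions, chosen after their values were seen, did not overlap between genotypes. Within 5 Mb of TRAF2, 42.2% of 64 other gene-end regions were higher in every knockout list, beside 25.2% in general. Within 5 Mb of TNIP1, 39.4% of 33 were lower, beside 12.8%.

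Of 33 pathway end regions in all 6 full lists, 12 (36.4%) were lower in every knockout list, beside 39.2% of gene-end regions in general. There 6 (18.2%) were higher, beside 6.37%. The 12 gene-end regions without overlap at equal length kept the sign of their difference in the full lists, and 8 of them still did not overlap there. The full wild-type lists add more weak peaks than the knockout lists do, so the 2 lower ends were bound to stay lower. The 4 that overlapped in the full lists were NFKBIA, REL, BCL3 and the promoter end of RELA. At some of these ends, ranks of other genes on the same stretch of chromosome moved too. Within 5 Mb of RELA, 57.2% of 152 other gene-end regions were higher in every knockout list. The shares were 67.2% of 131 near RELB, 65.1% of 126 near BCL3, 55.0% of 100 near NFKBIB and 67.8% of 90 near MAP3K14. Nearer the genome-wide share were 30.4% of 23 near NFKBIA and 28.6% of 49 near NFKBIE. The median differences near these 2 genes were 6.39 and 0.715 points, beside 1.87 points over all gene-end regions. By whole chromosome the share was 62.6% on chromosome 19 and 46.8% on chromosome 17, beside 25.2% genome-wide. Near BIRC3 and BIRC2, 8 of 13 other gene-end regions were lower in every knockout list and none was higher, whereas 28.4% were lower on chromosome 11 as a whole. At REL and NFKB2 the surroundings gave other values. None of 24 other gene-end regions within 5 Mb of REL was higher in every knockout list, and 13.3% of 60 were near NFKB2.

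**Figure D3:**
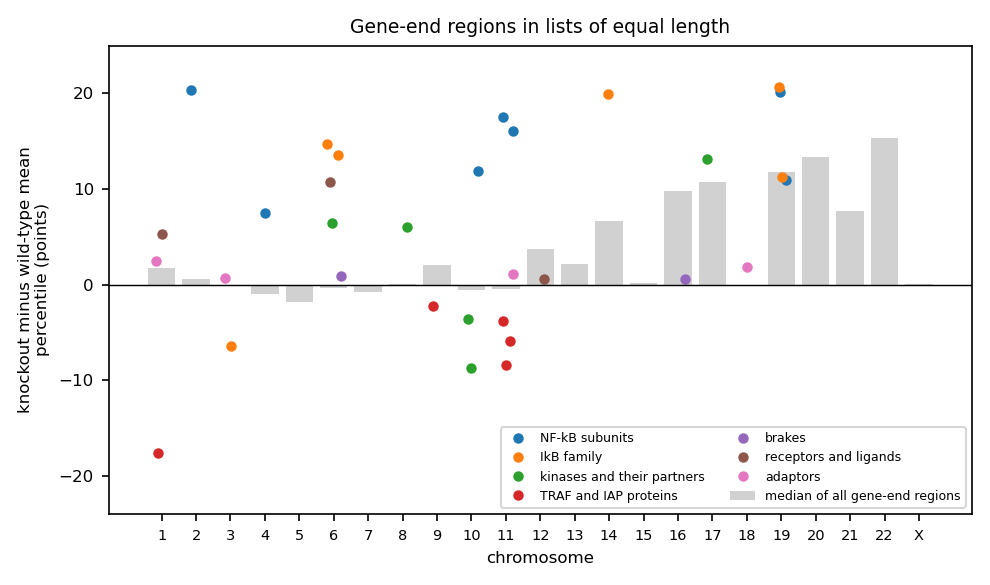
Difference of mean equal-length percentile, knockout minus wild type in points, for the pathway gene-end regions (points, coloured by role) over the median of all gene-end regions on the same chromosome (grey bars). Points on chromosome 19 lie over a raised bar (median 11.8 points), and points on chromosome 11 lie on both sides of 0.

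CpG content moved with the ranks as well. Among start regions in general, 33.1% of those in the highest of 3 CpG classes (35 to 66 CpG pairs in the window) and 19.2% of those in the lowest (0 to 25) were higher in every knockout list. In the middle class the share was 25.5%. Of the pathway start regions, 5 of 14 in the highest class, 2 of 6 in the middle class and 1 of 8 in the lowest class were higher. Lower in every knockout list were 2 of 14, 0 of 6 and 1 of 8, beside 7.04%, 13.8% and 16.8% in general. The parts of the chromosomal surroundings and of CpG content in the pathway genes' ranks were not tested. The lists carry no DNA copy numbers, so whether DNA copies along such stretches differ between the knockout and wild-type cells, which would bear on the BIRC3, BIRC2, RELB and MAP3K14 percentiles, was not tested.

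Calls near the genes were counted next. Of the 232 regions, 110 were called in all 6 lists, beside 39.5% of regions near all genes. They were 33 of 37 regions at pathway gene ends and 35 of 54 at ends of other genes, beside 78.0% of gene-end regions in general, and 42 of 141 distal regions, beside 24.1%. Regions absent from the knockout lists were rarer at gene ends than at distal sites, near pathway genes as near all genes. Of the 158 regions near pathway genes that all 3 wild-type lists held, 16 (10.1%) were in no knockout list, beside 13.1% of such regions near all protein-coding genes, and 0 of 110 showed the converse, beside 0.256% (0.0409% of gene-end and 0.525% of distal regions). By class these were 0 of 35 at pathway gene ends, 3 of 38 at ends of other genes, beside 2.64% of gene-end regions in general, and 13 of 85 distal regions (15.3%), beside 20.5%. The share was thus below the background overall and among distal regions. Without knockout library 2 the count was 27 of 158 (17.1%), beside 17.5%. The other single libraries left out gave 18 to 21 regions.

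The 16 regions covered a range of strengths within the wild-type lists. Their mean wild-type folds ran from 4.31 to 7.58 with a median of 5.26, beside 5.21 for all regions of this kind near genes and 12.4 for pathway regions called in all 6 lists. The lowest of the 3 wild-type folds was at most 6.62 in each, which is 2 times the highest of the weakest folds listed in knockout (3.31), but single wild-type folds reached 9.24. At equal list length, the regions absent from knockout numbered 4 of 118 (3.39%), beside 4.63% of such regions near all genes. These lie near CHUK, at chr10:100267312-100268112, between BIRC3 and BIRC2, at chr11:102341673-102342320, beyond TIRAP, at chr11:126313553-126314236, and near REL, at chr2:60980112-60980859. The CHUK region had folds of 5.34, 5.83 and 5.45 in the wild-type lists, the TIRAP region 5.98, 6.81 and 5.87, and the REL region 5.98, 7.53 and 5.66.

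**Figure D4:**
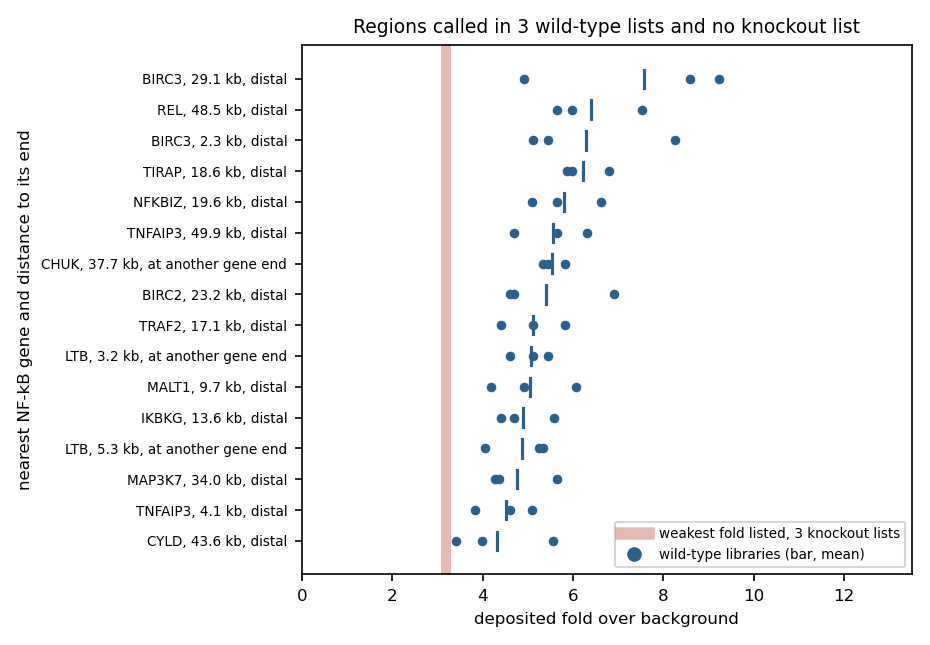
Deposited folds (horizontal axis) of the 16 regions that every wild-type list held and every knockout list lacked, by the nearest pathway gene and distance to its end, with a band over the weakest folds listed in the 3 knockout lists. Points are wild-type libraries and bars their means, which run from 4.31 to 7.58.

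In the lists of equal length, 1 of 107 regions held by all knockout lists was in no wild-type list, beside 2.94% of such regions near all genes. It lies just beyond NFKBIZ, at chr3:101863873-101864332, and had folds of 4.51, 5.25 and 3.93 in the knockout lists. In the full lists the region, there chr3:101863736-101864391, was called in all 6, with folds of 3.84, 4.62 and 3.56 in the wild-type lists. The 12 further regions absent from knockout in the full lists lay nearest to BIRC3, BIRC2, CYLD, MALT1, NFKBIZ, LTB (2 regions, at ends of LST1 and NCR3), MAP3K7, TNFAIP3 (2 regions), TRAF2 and IKBKG. The pair at TNFAIP3 comprised chr6:137870409-137871039 inside the gene, with wild-type folds of 3.84, 5.10 and 4.61, and chr6:137815851-137816468, 49.9 kb below it and just inside the window, with wild-type folds of 4.70, 6.32 and 5.66. Within 5 Mb of TNFAIP3, 22.7% of the regions held by all wild-type lists were in no knockout list.

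The stretch around BIRC3 and BIRC2 held 3 of the 16 regions. Of 11 regions within 50 kb of either gene, 5 were called in all 6 lists, and 4 of these 5 ranked lower in every knockout list. The folds of all 5 were lower in every knockout list too, as were those of 42% of regions near all genes. A distal region at chr11:102390295-102391824, 11.6 kb beyond BIRC2, ranked at 34.2, 46.7 and 27.4 in knockout lists and at 49.3, 62.4 and 62.0 in wild-type lists. The region between the genes, 2.27 kb from BIRC3, had folds of 5.13, 8.26 and 5.45 in the wild-type lists, and the one 29.1 kb below BIRC3, at chr11:102287259-102288387, had 4.91, 9.24 and 8.59. The third, at chr11:102401907-102402799, had 4.70, 4.62 and 6.92. Within 5 Mb of BIRC3, 34.1% of the 82 regions held by all wild-type lists were in no knockout list, so the stretch as a whole had this pattern. The part of the surrounding chromosome in the BIRC3 and BIRC2 values was not tested.

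**Figure D5:**
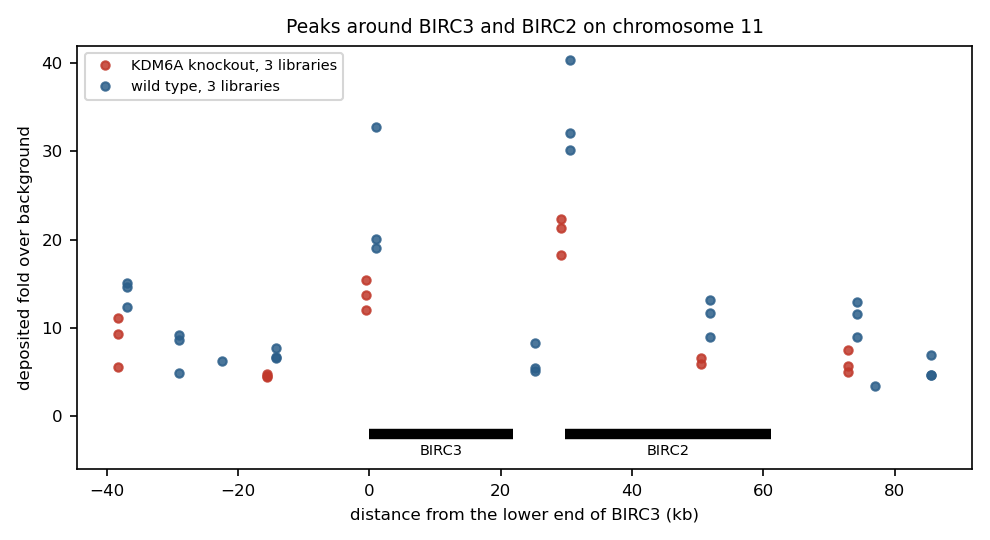
Deposited fold over background (vertical axis) of every region within 50 kb of BIRC3 or BIRC2 against distance from the lower end of BIRC3 in kb, for 3 knockout and 3 wild-type libraries. At the 5 regions called in all 6 lists the knockout points lie below the wild-type points.

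The cluster of LTA, TNF and LTB on chromosome 6 had 20 regions within 50 kb, of which 5 were called in all 6 lists and 10 in all wild-type lists. A region inside LTA, at chr6:31567521-31569513, ranked at 70.7, 80.7 and 70.4 in knockout lists and at 79.1, 87.4 and 83.6 in wild-type lists, and the groups overlapped. At LTB the end region ranked at 58.2, 61.3 and 49.4 in knockout lists and at 53.8, 47.0 and 36.0 in wild-type lists, with overlap. The exact permutation test gave p = 0.2 there (two-sided). Regions of this cluster are shared among the 3 genes, and over all pathway genes 27 regions lay near more than 1 gene.

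Other genes of the pathway were counted in the same way. Of 33 further components, 23 had an end peak in all 6 lists and 6 in none, and of 29 known target genes 12 did and 12 had none, beside 54.7% of all protein-coding genes with an end peak in all 6 lists. Among the components, the receptor TNFRSF17 (BCMA) and the ligand genes TNFSF13 (APRIL) and TNFSF13B (BAFF) were called in all 6 lists, and the receptor TNFRSF13B (TACI) in none. Among the targets, IL6, which encodes a growth factor of myeloma cells, and BCL2L1 and CFLAR, which encode survival proteins, were called in all 6 lists. The chemokine genes differed: CCL3 and CCL5 were called in all 6 lists, and CXCL8, CXCL1, CXCL2, CXCL10, CCL2, CCL4 and CCL22 in none. CCL20 was called in 1 wild-type list. No gene of either list had an end called in all 3 libraries of a single genotype and none of the other. Near the 62 genes of both lists, 25 of 230 regions held by all wild-type lists (10.9%) were in no knockout list, and 39 of 135 compared at equal length (28.9%) were higher in every knockout list, with 14 lower. Those shares are read beside the same backgrounds of 13.1%, 20.3% and 15.2%.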

How the data were processed

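ATAC-seq peak lists of 3 KDM6A knockout and 3 wild-type ARP1 libraries were used, 1 list per library, grouped by sample title. Trimmomatic, FastQC, MultiQC, Bowtie2, MACS and MACS2 2.1.2 with build GRCh38 are named in the submitters' processing notes. For their settings, read shifting for the transposase and duplicate removal, nothing is stated in the sources used here. The deposited score, the authors' fold ratio over background, and the deposited −log10 p-value and −log10 q-value came from the authors' peak caller, and the folds describe peaks within a list. Read totals per library are not in these lists, so background pileup was recovered from the fold steps. Below a fold of 100, 100% of the folds of each list fell on whole steps (within 0.01 of a step). The mitochondrial peak, 1 per list, was left out.

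Peaks sharing 1 bp were merged. Gene ends, taken from a RefSeq table without strand, had windows of 1 kb, and regional windows reached 50 kb. Starts and sequences came from the RefSeq promoter table (GRCh38.p14). A region was absent from a genotype when 0 of its 3 lists had a peak. Percentiles were taken in lists of 33055 peaks. Single regions were compared by two-sided exact permutation over 20 labellings. Counts were read beside the share over all protein-coding genes and carry no test. Values are given for 12 fixed genes, for regions present in a single genotype and for up to 5 further ends per direction without overlap. The genes, lists and tests were chosen with earlier results of these data known. The 5 Mb surroundings, CpG classes and listed starts were added after seeing the data. The code was tested on simulated data. Python 3.11.15, numpy 2.4.6, pandas 2.3.3, scipy 1.17.1 and matplotlib 3.10.9 were used.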

Additional observations from a re-analysis of the deposited data

How the results depend on the processing

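The 29 genes with an end peak in all 6 lists stayed within 1.5 times of that count in every alternative run: 28 at a −log10 q-value of at least 5 and at equal list length, and 29 with any library left out and with narrower or wider end windows. Regions of all wild-type and no knockout lists, 16 in the full lists, numbered 4 at equal list length, 5 with windows of 10 kb, 26 when 2 of 3 wild-type lists sufficed, 35 when peaks had to cover at least 50% of a region, and 18 to 27 with a library left out. Regions in all knockout and no wild-type lists, 0 in the full lists, numbered 1 at equal list length and 0 with any library left out. Genes with an end called in wild type alone numbered 0 to 1 with a library left out, the 1 being LTA without knockout replicate 2. Of regions ranked in all 6 lists, 40 were lower and 13 higher in every knockout list in the full lists, against 11 and 30 at equal length, and leaving out a library gave 13 to 16 lower and 33 to 41 higher. Ranking by fold gave 11 and 30 again, and the differences at the pathway gene ends did not change. Fold and −log10 p order the peaks of a list alike, so that run was no separate check. With the replicate number as a block, 14 regions were lower and 43 higher in every same-numbered pair. The labels do not say whether the numbers pair the samples. The deviations of same-numbered libraries correlated at −0.025, 0.0045 and −0.15, and those of differently numbered libraries at −0.085 to 0.103. With 3 libraries per genotype these values cannot settle whether cultures were shared, and the block is no evidence of pairing. The cause of these changes was not tested, except that shorter lists and fewer libraries change what can be called. Read depth was not tested: the weakest folds listed were 3.31, 3.28 and 3.09 in the knockout lists and 2.78, 2.92 and 2.72 in the wild-type lists.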
